A study of Mus musculus with 14 samples.

Results

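Integrins, laminins and collagens form an adhesion system in which a cell holds on to the extracellular matrix, and their mRNAs were followed in cultured oligodendrocyte precursor cells (OPCs) of the mouse. A gene belonged to the set if its symbol was that of an integrin alpha or beta subunit, a laminin chain or a collagen chain and its level was at least 1 FPKM (fragments scaled to exon length and to library size) in 2 or more of the 14 libraries. Of 80 such symbols among 23427 genes in the table, 36 were members: 13 of 26 integrins (9 of 18 alpha and 4 of 8 beta subunits), 4 of 11 laminins and 19 of 43 collagens. The cells came from the cortex of wild-type C57BL/6J pups at postnatal day 7, pooled, and were captured with an antibody against the receptor Pdgfra before culture, so the libraries describe purified cells in a dish and not tissue. The 7 groups held 2 libraries each. Day0 held OPCs at the start of differentiation. The other 6 groups were taken at Day3, after PDGF-AA had been withdrawn and the thyroid hormone T3 added: non-treated cells, mock-transfected cells, and cells transfected with NC siRNA #1, with NC siRNA #2 (both non-targeting), with siRNA against Sbp2l (siSbp2l) or with siRNA against Pdgfra (siPdgfra). All groups share the wild-type genotype and the strain. With 2 libraries a group, every p-value measures the spread between these samples only.

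The targeted genes followed the labels. Sbp2l, listed as Secisbp2l, stood at 30.4 and 31.5 FPKM at Day0, 157 and 223 in non-treated, 159 in both libraries of mock, 255 and 244 in NC siRNA #1, 135 and 140 in NC siRNA #2, 3.91 and 3.82 in siSbp2l and 145 and 143 in siPdgfra. Pdgfra stood at 409 and 436 FPKM at Day0, 62.7 and 72.1 in non-treated, 61.3 and 62.9 in mock, 32.4 and 32.7 in NC siRNA #1, 47.0 and 44.3 in NC siRNA #2, 150 and 144 in siSbp2l and 3.30 and 2.69 in siPdgfra. Depth, recovered from the steps between low values, ranged from 6560828 to 31621279 fragments a library, and 10834 to 11034 genes reached 1 FPKM. The shallow library was NC siRNA #2 replicate 2, and the next lowest depth was 18481294, so low values of that library rest on few fragments. The non-treated pair stood apart: the standard deviation of its log2 difference between replicates was 0.457 against 0.148 to 0.2 in the other 6 groups. That difference followed the GC content of the transcript (Spearman's rho = 0.77 across 11031 genes, which are not independent replicates). The replicate difference also followed GC content at Day0 (rho = 0.5) and in NC siRNA #1 (rho = -0.45), and less in the other groups (-0.06 to 0.18). Collagen transcripts were rich in GC (median 59.1%, against 44.8% in integrins and 49.6% in all genes tested), and in non-treated the median log2 difference of replicate 1 from replicate 2 was 0.42 for collagens and -0.32 for integrins. At Day0 that median was 0.15 for collagens and -0.03 for integrins. Non-treated and mock are therefore both given against Day0, which enters both comparisons with its own trend.

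Integrins are cell-surface receptors made of 1 alpha and 1 beta subunit, and the pair of subunits sets which matrix protein is bound. Laminins, trimers of an alpha, a beta and a gamma chain, and network-forming collagen IV are the main building blocks of basement membranes. Other collagens form fibrils or decorate them. In the oligodendrocyte (OL) lineage, integrins that contain the beta1 subunit are known as receptors for laminin on axons, and signals from them bear on survival and myelination.

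Promoter sequences of 6 members are shown because the results turn on these genes. On the log2(FPKM + 1) scale Itga8 fell furthest from Day0 and Col20a1 rose furthest, and Col4a1 shares a start region with Col4a2. Col18a1, Col11a2, Col16a1 and Col20a1 were the 4 members called in siPdgfra against every control group. RefSeq promoters on GRCm38.p6 were found for 29 of the 36 members, and each sequence is the 250 bases before the annotated start, written 5′ to 3′ on the strand of the gene. Capitals mark 3 motifs on either strand: the GC box GGGCGG (reverse CCGCCC), the CCAAT box CCAAT (reverse ATTGG) and the TATA box TATAAA (reverse TTTATA). No motif contains another. The RefSeq start lies 299 bases from the start in the gene model of the files for Col11a2 and 24 bases from it for Itga8, and is the same base for the other 4.
Itga8 (chr2:12301945-12302194, minus strand): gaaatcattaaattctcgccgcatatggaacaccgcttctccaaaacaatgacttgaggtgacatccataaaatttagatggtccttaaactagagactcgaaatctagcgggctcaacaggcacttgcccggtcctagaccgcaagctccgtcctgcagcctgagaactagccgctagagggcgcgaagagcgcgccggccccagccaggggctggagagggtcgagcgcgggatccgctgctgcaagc
Col20a1 (chr2:180986285-180986534, plus strand): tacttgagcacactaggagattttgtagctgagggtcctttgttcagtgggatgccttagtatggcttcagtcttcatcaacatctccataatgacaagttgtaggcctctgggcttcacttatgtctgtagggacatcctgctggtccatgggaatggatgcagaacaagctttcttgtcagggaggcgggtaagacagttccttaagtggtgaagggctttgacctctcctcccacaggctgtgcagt
Col4a1 (chr8:11312827-11313076, minus strand): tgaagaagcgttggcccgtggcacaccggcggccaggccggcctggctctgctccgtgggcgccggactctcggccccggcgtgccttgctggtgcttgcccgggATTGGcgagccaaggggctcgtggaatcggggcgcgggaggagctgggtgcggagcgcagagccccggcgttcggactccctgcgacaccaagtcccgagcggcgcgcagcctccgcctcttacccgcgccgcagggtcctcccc
Col18a1 (chr10:77166531-77166780, minus strand): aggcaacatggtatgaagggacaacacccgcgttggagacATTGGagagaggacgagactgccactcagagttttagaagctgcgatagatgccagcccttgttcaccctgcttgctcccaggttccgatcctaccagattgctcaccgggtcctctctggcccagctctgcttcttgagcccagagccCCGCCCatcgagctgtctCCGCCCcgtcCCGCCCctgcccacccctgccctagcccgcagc
Col11a2 (chr17:34038888-34039137, plus strand): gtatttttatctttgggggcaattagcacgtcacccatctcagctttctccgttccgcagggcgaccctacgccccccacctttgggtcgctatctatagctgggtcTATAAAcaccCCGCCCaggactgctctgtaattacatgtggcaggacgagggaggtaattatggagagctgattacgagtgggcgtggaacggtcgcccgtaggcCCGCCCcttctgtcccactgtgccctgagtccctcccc
Col16a1 (chr4:130047590-130047839, plus strand): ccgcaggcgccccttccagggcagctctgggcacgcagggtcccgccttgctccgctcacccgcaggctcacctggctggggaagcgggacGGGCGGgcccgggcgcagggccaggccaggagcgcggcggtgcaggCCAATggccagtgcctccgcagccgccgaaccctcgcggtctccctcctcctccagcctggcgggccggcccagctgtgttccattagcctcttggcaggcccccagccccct
The windows of Itga8 and Col20a1 held none of these letters. The Col18a1 window held 3 GC boxes and 1 CCAAT box, that of Col11a2 2 GC boxes and 1 TATA box, that of Col16a1 1 GC box and 1 CCAAT box, and that of Col4a1 1 CCAAT box. Over the 29 matched members, 14 windows (48.3%) held a GC box, 9 (31%) a CCAAT box and 2 (6.9%) a TATA box, against 33%, 33.8% and 12.3% of 32536 promoter windows of the same length. For the members 1 window a gene was taken, while a gene could have several among the 32536. The Itga9 window, counted among the 29, belongs to a start 104983 bases from that in the gene model of the files. A match is a description of letters and not a binding site.

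Levels were dominated by a few members. Among integrins Itgb1 (beta1, chr8:128685654-128733579, plus strand), the subunit shared by most matrix-binding integrins, was highest in every library, at 192 and 205 FPKM at Day0, 184 and 241 in non-treated, 177 and 174 in mock, 227 and 211 in NC siRNA #1, 201 and 194 in NC siRNA #2, 248 and 234 in siSbp2l and 171 and 189 in siPdgfra. No other integrin exceeded 64.6 FPKM in any library, and the Itgb1 groups overlapped between Day0 and Day3. Among laminins the gamma1 chain Lamc1, part of most laminin trimers, was highest throughout. It stood at 23.9 and 24.4 FPKM at Day0, 33.1 and 32.2 in non-treated, 31.6 and 31.7 in mock, 27.1 and 27.3 in NC siRNA #1, 16.6 and 16.2 in NC siRNA #2, 23.7 and 24.7 in siSbp2l and 14.4 and 14.8 in siPdgfra. Among collagens Col11a1, a chain of fibril-forming collagen XI, ranged from 93.8 to 290 FPKM and was highest in every library but non-treated replicate 1, where Col16a1 at 138 exceeded it at 135. By second-highest FPKM, on which membership turned, Col6a1 at 1.24, Itga2b at 1.39 and Col28a1 at 1.42 were just inside, and Col19a1 at 0.978, Itgb4 at 0.902 and Lama1 at 0.715 just outside. Of the 44 symbols below it, Col8a1 and Col8a2 were listed at 0 in all libraries. Several chains that are known partners of members were also below it. Lamb1, the beta1 laminin chain, peaked at 0.45 FPKM, Col5a2 at 0.0139, Col4a4 at 0.131, Col4a6 at 0.0971 and Col6a3 at 0.0274. The interstitial collagens Col1a1, Col1a2 and Col3a1 of fibroblasts peaked at 0.13, 0.0296 and 0.0745 FPKM. Itgam and Itgb2, the subunits of an integrin of microglia, peaked at 0.0308 and 0.0533.

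**Figure D1:**
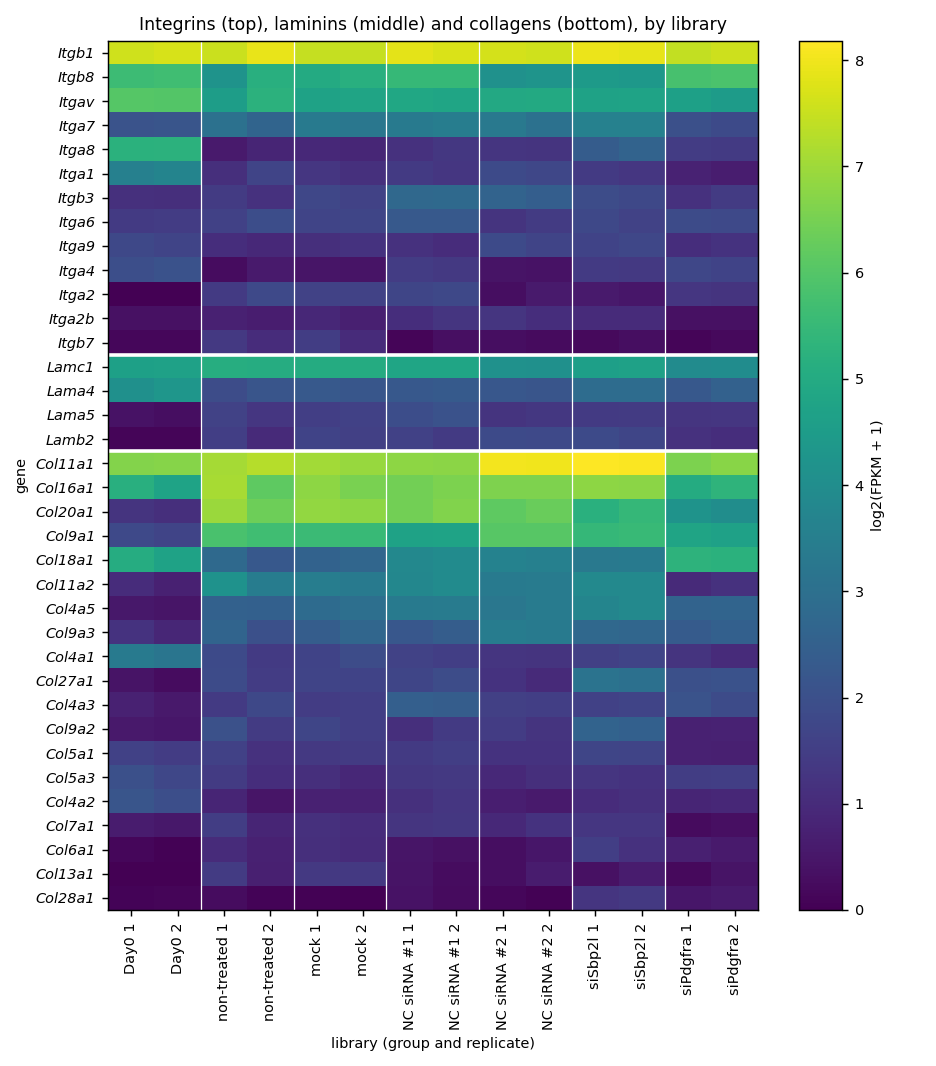
Levels of the 36 members in all 14 libraries, coloured as log2(FPKM + 1), with integrins, laminins and collagens separated by white lines and each family ordered by its mean level. Itgb1 is high in every library, Itga8, Itga1, Lama4 and Col4a1 are high at Day0, and Col20a1 and Col9a1 are near the bottom of the scale at Day0 and high at Day3.

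Receptors and ligands both changed between Day0 and Day3, and in both directions. Against Day0, 13 members were higher and 8 lower in non-treated, where 26.6% of 11874 genes tested were called (11.4% higher and 15.2% lower). In mock 14 were higher and 8 lower, with 26.2% of all genes called (12.2% higher and 14% lower). A call needed a fold change of at least 2 on log2(FPKM + 1) and a Benjamini-Hochberg adjusted p under 0.05 in limma. The 21 members called in non-treated were also called, in the same direction, in mock, and Itga7 was called in mock alone. The median log2 difference of the members was 0.46 in non-treated and 0.47 in mock, beside -0.12 and -0.07 for all genes tested. By family, in both comparisons 9 of 19 collagens were higher and 3 lower, 2 of 4 laminins higher and 1 lower, and 4 of 13 integrins lower, with 2 integrins higher in non-treated and 3 in mock. In bulk RNA, fewer cells of a type and less RNA per cell cannot be told apart. Itgb7 and Col13a1 reached 1 FPKM in non-treated and mock libraries alone, so the filter admitted them through the groups in which they were called higher. The counts without both are 11 higher in non-treated and 12 in mock. With the GC and length trends removed within each library, 14 members were higher and 8 lower in non-treated, and 11 and 9 in mock. Over all genes that setting gave 1560 higher and 1512 lower calls in non-treated and 1540 and 1483 in mock. Under it Col9a2, Itgb7 and Lama5 lost the call in mock, at 0.91, 0.93 and 0.97, and Col5a3 gained it at -1.05. Without non-treated replicate 1, 15 members were called in non-treated against Day0: Itgav, Itgb7, Lama5, Lamb2, Col13a1, Col9a2 and Col9a3 lost the call and Col4a3 gained it, at 1.10 on the log2 scale.

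The integrin that fell furthest on the log2(FPKM + 1) scale was Itga8 (alpha8, chr2:12106660-12301920, minus strand), which pairs with beta1 and binds RGD-containing ligands such as nephronectin and fibronectin. Its level was 36.7 and 37.4 FPKM at Day0, 0.508 and 0.818 in non-treated, 0.931 and 0.856 in mock, 1.23 and 1.52 in NC siRNA #1, 1.38 and 1.34 in NC siRNA #2, 4.27 and 5.10 in siSbp2l and 1.76 and 1.60 in siPdgfra. Both Day0 libraries lay above all 12 Day3 libraries, and of those the siSbp2l libraries were highest. The log2 difference from Day0 was -4.52 ± 0.12 (SE, adjusted p = 1.4e-10) in non-treated and -4.33 ± 0.12 (SE, adjusted p = 1.82e-10) in mock. Itga1 (alpha1, chr13:114958081-115101964, minus strand), which makes a collagen receptor with beta1, had 10.8 and 11.8 FPKM at Day0, 1.12 and 2.19 in non-treated, 1.45 and 1.19 in mock, 1.65 and 1.46 in NC siRNA #1, 2.55 and 2.34 in NC siRNA #2, 1.65 and 1.46 in siSbp2l and 0.719 and 0.569 in siPdgfra. No Day3 library reached a Day0 level, and the log2 difference was -2.24 ± 0.16 (SE, adjusted p = 3.05e-07) in non-treated and -2.41 ± 0.16 (SE, adjusted p = 1.62e-07) in mock. Its neighbour Itga2 (alpha2, chr13:114835912-114932041, minus strand), the other classic collagen-binding alpha subunit, lies 26 kb away on the same strand and moved the opposite way. Itga2 was at 0 FPKM in both Day0 libraries, 1.64 and 2.49 in non-treated, 2.08 and 2.04 in mock, 2.29 and 2.44 in NC siRNA #1, 0.244 and 0.506 in NC siRNA #2, 0.514 and 0.415 in siSbp2l and 1.46 and 1.36 in siPdgfra. Against a floor of 3 fragments a library at Day0, non-treated was at least 76.3-fold and mock at least 76-fold higher, and with only a lower bound its fold in FPKM cannot be ranked against those of other members. The Itga2 difference on the log2(FPKM + 1) scale was 1.60 ± 0.13 (SE, adjusted p = 9.12e-07) in non-treated and 1.61 ± 0.13 (SE, adjusted p = 8.64e-07) in mock, and the NC siRNA #2 and siSbp2l libraries were lower than the other Day3 libraries.

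Itgav (alphaV, chr2:83724397-83806916, plus strand), the subunit of vitronectin and latent TGF-beta receptors, was the second most abundant alpha or beta subunit at Day0. It had 64.6 and 62.1 FPKM at Day0, 22.8 and 37.2 in non-treated, 25.3 and 26.2 in mock, 28.6 and 27.2 in NC siRNA #1, 29.6 and 30.3 in NC siRNA #2, 25.0 and 25.8 in siSbp2l and 24.2 and 21.6 in siPdgfra. The Day0 libraries did not overlap the others, and the log2 difference was -1.10 ± 0.17 (SE, adjusted p = 0.00015) in non-treated, where the replicates were 22.8 and 37.2, and -1.27 ± 0.17 (SE, adjusted p = 4.92e-05) in mock. Among the beta partners of alphaV that were members, Itgb8 and Itgb3 took different courses. Itgb8 (beta8), which with alphaV activates latent TGF-beta, was at 47.7 and 50.4 FPKM at Day0, 17.6 and 35.1 in non-treated, 31.1 and 34.9 in mock, 43.8 and 43.6 in NC siRNA #1, 16.5 and 17.7 in NC siRNA #2, 21.0 and 19.7 in siSbp2l and 54.2 and 57.4 in siPdgfra. It was not called against Day0, at -0.95 ± 0.22 (SE, adjusted p = 0.00293) in non-treated and -0.56 ± 0.22 (SE, adjusted p = 0.045) in mock, and the groups with the highest levels were Day0, NC siRNA #1 and siPdgfra. Itgb3 (beta3), the subunit of the classic vitronectin receptor, was at 1.22 and 1.13 FPKM at Day0, 1.70 and 1.24 in non-treated, 2.37 and 2.09 in mock, 5.86 and 5.93 in NC siRNA #1, 5.02 and 4.48 in NC siRNA #2, 2.72 and 2.40 in siSbp2l and 1.26 and 1.71 in siPdgfra. Its highest libraries were the 4 that received a non-targeting siRNA, and it was not called against Day0 in either comparison.

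Itga4 (alpha4), which pairs with beta1 or beta7 and binds VCAM1 and fibronectin, fell. Its values were 2.90 and 3.16 FPKM at Day0, 0.213 and 0.519 in non-treated, 0.372 and 0.347 in mock, 1.75 and 1.56 in NC siRNA #1, 0.347 and 0.326 in NC siRNA #2, 1.60 and 1.58 in siSbp2l and 2.33 and 2.15 in siPdgfra. The log2 difference was -1.57 ± 0.11 (SE, adjusted p = 1.81e-07) in non-treated and -1.57 ± 0.11 (SE, adjusted p = 1.83e-07) in mock, while NC siRNA #1, siSbp2l and siPdgfra lay between these and Day0. Itgb7 (beta7), a partner of alpha4, was at 0.106 and 0.116 FPKM at Day0, 1.58 and 1.05 in non-treated, 1.78 and 1.02 in mock, 0.0759 and 0.255 in NC siRNA #1, 0.243 and 0.171 in NC siRNA #2, 0.166 and 0.241 in siSbp2l and 0.0699 and 0.150 in siPdgfra. Only the 4 non-treated and mock libraries exceeded 1 FPKM, and it was a member through them. Its log2 difference from Day0 was 1.05 ± 0.15 (SE, adjusted p = 9.48e-05) in non-treated and 1.09 ± 0.15 (SE, adjusted p = 6.99e-05) in mock. Itga7 (alpha7), a laminin-binding partner of beta1, was at 3.24 and 3.50 FPKM at Day0, 7.30 and 5.16 in non-treated, 9.15 and 8.57 in mock, 9.10 and 10.0 in NC siRNA #1, 8.80 and 7.24 in NC siRNA #2, 11.1 and 11.2 in siSbp2l and 3.01 and 2.55 in siPdgfra. The siPdgfra libraries lay below both Day0 libraries and the other Day3 libraries above them. The difference from Day0 was 0.71 ± 0.14 (SE, adjusted p = 0.00103) in non-treated, short of the fold threshold, and 1.17 ± 0.14 (SE, adjusted p = 2.36e-05) in mock. Itga6 (alpha6), the best-known laminin receptor subunit of the lineage, ranged from 1.32 to 3.90 FPKM, and with Itga9 and Itga2b it was not called in any comparison. Itgb1 differed from Day0 by 0.08 ± 0.12 (SE, adjusted p = 0.567) in non-treated (95% interval -0.19 to 0.36) and -0.18 ± 0.12 (SE, adjusted p = 0.23) in mock (95% interval -0.45 to 0.10).

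Laminin alpha chains moved in opposite directions. Lama4 (alpha4, chr10:38965515-39110188, plus strand), a chain of vascular and peripheral basement membranes, was at 16.4 and 18.5 FPKM at Day0, 2.72 and 3.49 in non-treated, 3.88 and 3.57 in mock, 3.80 and 4.0 in NC siRNA #1, 3.70 and 3.45 in NC siRNA #2, 6.36 and 6.44 in siSbp2l and 3.78 and 4.87 in siPdgfra. The Day0 libraries stood clear of all others, and the log2 difference was -2.17 ± 0.13 (SE, adjusted p = 4.51e-08) in non-treated and -1.96 ± 0.13 (SE, adjusted p = 1.06e-07) in mock. Lama5 (alpha5) was at 0.322 and 0.223 FPKM at Day0, 2.07 and 1.46 in non-treated, 1.84 and 2.01 in mock, 2.81 and 3.15 in NC siRNA #1, 1.33 and 1.50 in NC siRNA #2, 1.64 and 1.70 in siSbp2l and 1.40 and 1.46 in siPdgfra. No Day3 library fell to the Day0 level, with a log2 difference of 1.11 ± 0.11 (SE, adjusted p = 4.95e-06) in non-treated and 1.20 ± 0.11 (SE, adjusted p = 2.62e-06) in mock. Lamb2 (beta2) was at 0.0787 and 0.0711 FPKM at Day0, 1.88 and 0.958 in non-treated, 2.14 and 1.91 in mock, 2.02 and 1.62 in NC siRNA #1, 2.57 and 2.47 in NC siRNA #2, 2.61 and 2.24 in siSbp2l and 1.26 and 1.09 in siPdgfra. It was also above Day0 in all 12 Day3 libraries, by 1.14 ± 0.16 (SE, adjusted p = 5.93e-05) in non-treated and 1.49 ± 0.16 (SE, adjusted p = 7.02e-06) in mock. Lamc1 was higher by 0.42 ± 0.08 (SE, adjusted p = 0.000431) and 0.38 ± 0.08 (SE, adjusted p = 0.000946), under the fold threshold. No laminin beta chain reached 1 FPKM at Day0, where Lama4 and Lamc1 were the abundant chains.

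Basement membrane collagen fell in its common chains and rose in another. Col4a1 and Col4a2 are transcribed away from each other on chromosome 8. In the gene model of the files (mm10), 2 bases lie between the start of Col4a1 at 11312826 and that of Col4a2 at 11312829. In RefSeq Col4a2 starts at 11312805, so the starts overlap there. The Col4a1 sequence printed above lies upstream of Col4a1 and, by that RefSeq start, within Col4a2. Col4a1 was at 9.39 and 8.04 FPKM at Day0, 2.58 and 1.64 in non-treated, 2.15 and 2.73 in mock, 2.03 and 1.86 in NC siRNA #1, 1.41 and 1.34 in NC siRNA #2, 1.91 and 2.23 in siSbp2l and 1.33 and 1.01 in siPdgfra. Col4a2 was at 3.43 and 2.90 FPKM at Day0, 0.799 and 0.372 in non-treated, 0.696 and 0.681 in mock, 1.19 and 1.44 in NC siRNA #1, 0.615 and 0.522 in NC siRNA #2, 1.04 and 1.22 in siSbp2l and 0.785 and 0.880 in siPdgfra. Both Day0 libraries lay above all Day3 libraries for each gene. The Col4a1 difference was -1.66 ± 0.15 (SE, adjusted p = 2.44e-06) in non-treated and -1.50 ± 0.15 (SE, adjusted p = 5.55e-06) in mock, and that of Col4a2 -1.40 ± 0.13 (SE, adjusted p = 2.26e-06) and -1.30 ± 0.13 (SE, adjusted p = 4.28e-06). Col4a5 (chrX:141475419-141689235, plus strand), a chain of the alpha3-alpha4-alpha5 network of kidney and other basement membranes, was at 0.455 and 0.373 FPKM at Day0, 4.78 and 4.75 in non-treated, 6.22 and 6.98 in mock, 9.08 and 9.66 in NC siRNA #1, 8.54 and 9.49 in NC siRNA #2, 12.2 and 13.4 in siSbp2l and 5.10 and 5.21 in siPdgfra. Every Day3 library lay above Day0 and siSbp2l was highest, with a difference from Day0 of 2.03 ± 0.10 (SE, adjusted p = 8.4e-09) in non-treated and 2.42 ± 0.10 (SE, adjusted p = 2.23e-09) in mock. Col18a1 (chr10:77052179-77166530, minus strand), the basement membrane proteoglycan collagen whose end fragment is endostatin, was at 32.9 and 25.2 FPKM at Day0, 5.92 and 3.72 in non-treated, 4.93 and 5.52 in mock, 13.0 and 14.3 in NC siRNA #1, 11.2 and 10.9 in NC siRNA #2, 8.84 and 9.06 in siSbp2l and 37.8 and 36.5 in siPdgfra. The lowest libraries were non-treated and mock, both siPdgfra libraries lay above the Day0 libraries, and the difference from Day0 was -2.38 ± 0.17 (SE, adjusted p = 2.35e-07) in non-treated and -2.26 ± 0.17 (SE, adjusted p = 3.68e-07) in mock.

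Collagens that decorate fibrils (the FACIT collagens) included the largest rises on the log2(FPKM + 1) scale. Col20a1 (chr2:180986535-181017540, plus strand) was at 1.37 and 1.14 FPKM at Day0, 123 and 82.9 in non-treated, 114 and 110 in mock, 85.8 and 98.1 in NC siRNA #1, 70.6 and 79.0 in NC siRNA #2, 35.7 and 42.4 in siSbp2l and 17.3 and 15.2 in siPdgfra. Day0 was lowest and no other group overlapped it. The difference was 5.50 ± 0.17 (SE, adjusted p = 4.21e-10) in non-treated and 5.65 ± 0.17 (SE, adjusted p = 3.96e-10) in mock. Col9a1 (chr1:24177610-24252738, plus strand), a chain of collagen IX, which coats collagen II fibrils in cartilage, was at 2.50 and 2.22 FPKM at Day0, 56.1 and 50.1 in non-treated, 46.4 and 45.1 in mock, 25.1 and 25.6 in NC siRNA #1, 65.1 and 66.0 in NC siRNA #2, 42.7 and 45.2 in siSbp2l and 26.4 and 24.8 in siPdgfra. It was above Day0 in all Day3 libraries, by 4.01 ± 0.09 (SE, adjusted p = 4.69e-11) and 3.80 ± 0.09 (SE, adjusted p = 6.67e-11). The other 2 chains of collagen IX were far less abundant. Col9a2 was at 0.484 and 0.421 FPKM at Day0, 3.08 and 1.69 in non-treated, 2.28 and 1.89 in mock, 1.15 and 1.64 in NC siRNA #1, 1.73 and 1.33 in NC siRNA #2, 5.07 and 4.75 in siSbp2l and 0.698 and 0.711 in siPdgfra. Col9a3 was at 1.28 and 0.843 FPKM at Day0, 5.20 and 2.98 in non-treated, 4.31 and 5.51 in mock, 3.71 and 4.33 in NC siRNA #1, 9.71 and 9.16 in NC siRNA #2, 5.84 and 5.47 in siSbp2l and 4.07 and 4.71 in siPdgfra. Both passed the test, Col9a2 at 1.19 ± 0.18 (SE, adjusted p = 0.000115) in non-treated and 1.08 ± 0.18 (SE, adjusted p = 0.000236) in mock and Col9a3 at 1.28 ± 0.19 (SE, adjusted p = 0.000126) and 1.52 ± 0.19 (SE, adjusted p = 3.28e-05). Col16a1 (chr4:130047840-130099277, plus strand), an integrin-binding FACIT collagen, was at 35.0 and 25.9 FPKM at Day0, 138 and 69.8 in non-treated, 110 and 91.5 in mock, 86.6 and 94.9 in NC siRNA #1, 95.5 and 96.5 in NC siRNA #2, 109 and 108 in siSbp2l and 32.1 and 38.6 in siPdgfra. The non-treated replicates were wide apart, and all 10 control and siSbp2l libraries of Day3 lay above Day0 while siPdgfra overlapped it. The difference was 1.68 ± 0.25 (SE, adjusted p = 0.000134) in non-treated and 1.70 ± 0.25 (SE, adjusted p = 0.00012) in mock.

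Fibril-forming and other collagens included low members that rose and an abundant one that stayed under the threshold. Col11a2, the second chain of collagen XI, was at 1.08 and 0.698 FPKM at Day0, 16.9 and 9.78 in non-treated, 10.0 and 9.09 in mock, 12.7 and 14.3 in NC siRNA #1, 9.04 and 9.60 in NC siRNA #2, 13.4 and 13.3 in siSbp2l and 0.967 and 1.22 in siPdgfra. The Day0 and siPdgfra libraries were low and overlapped, and the difference from Day0 was 2.89 ± 0.20 (SE, adjusted p = 1.84e-07) in non-treated and 2.49 ± 0.20 (SE, adjusted p = 6.51e-07) in mock. Col11a1 was at 101 and 103 FPKM at Day0, 135 and 152 in non-treated, 132 and 121 in mock, 110 and 108 in NC siRNA #1, 261 and 254 in NC siRNA #2, 290 and 279 in siSbp2l and 93.8 and 106 in siPdgfra. Its log2 differences from Day0, 0.49 in non-treated and 0.31 in mock, were under the fold threshold, and its high libraries were those of NC siRNA #2 and siSbp2l. Col27a1, another fibrillar chain, was at 0.352 and 0.215 FPKM at Day0, 2.66 and 1.74 in non-treated, 2.19 and 2.11 in mock, 2.27 and 2.70 in NC siRNA #1, 1.30 and 0.978 in NC siRNA #2, 7.68 and 7.09 in siSbp2l and 2.96 and 3.21 in siPdgfra. All Day3 libraries exceeded Day0, siSbp2l most, and the difference was 1.30 ± 0.14 (SE, adjusted p = 8.98e-06) in non-treated and 1.30 ± 0.14 (SE, adjusted p = 9.43e-06) in mock. Col13a1, a transmembrane collagen, was at 0 FPKM in both Day0 libraries, 1.67 and 0.662 in non-treated, 1.56 and 1.54 in mock, 0.350 and 0.217 in NC siRNA #1, 0.224 and 0.525 in NC siRNA #2, 0.289 and 0.524 in siSbp2l and 0.161 and 0.345 in siPdgfra. It was a member through 3 libraries of non-treated and mock. Against the Day0 floor of 3 fragments a library it was at least 29.6-fold higher in non-treated and at least 39.4-fold higher in mock, and on the log2(FPKM + 1) scale by 1.07 ± 0.19 (SE, adjusted p = 0.000459) and 1.35 ± 0.19 (SE, adjusted p = 8.3e-05). Col7a1, the anchoring fibril collagen, was at 0.547 and 0.445 FPKM at Day0, 1.79 and 0.804 in non-treated, 1.18 and 1.05 in mock, 1.39 and 1.53 in NC siRNA #1, 0.935 and 1.29 in NC siRNA #2, 1.47 in both libraries of siSbp2l and 0.188 and 0.272 in siPdgfra. It was lowest in siPdgfra and was not called against Day0. Col4a3, Col5a1, Col5a3 and Col6a1 were not called in non-treated or mock against Day0 or in any comparison among the Day3 groups, and lay between 0.0447 and 4.54 FPKM. Col6a1, a chain of the beaded-filament collagen VI, was at 0.0954 and 0.0447 FPKM at Day0, 1.01 and 0.683 in non-treated, 1.16 and 1.0 in mock, 0.383 and 0.303 in NC siRNA #1, 0.245 and 0.422 in NC siRNA #2, 1.86 and 1.24 in siSbp2l and 0.646 and 0.516 in siPdgfra. Col4a3, a partner of Col4a5, was at 0.691 and 0.480 FPKM at Day0, 1.61 and 2.40 in non-treated, 1.76 and 1.87 in mock, 4.54 and 4.32 in NC siRNA #1, 1.96 and 1.84 in NC siRNA #2, 2.02 and 2.23 in siSbp2l and 3.27 and 2.69 in siPdgfra. In comparisons of the knockdowns with Day0, which were added after the data were seen, Col6a1 was higher in siSbp2l at 1.24 ± 0.13 (SE, adjusted p = 9.12e-06) and Col4a3 in siPdgfra at 1.33 ± 0.13 (SE, adjusted p = 4.43e-06).

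**Figure D2:**
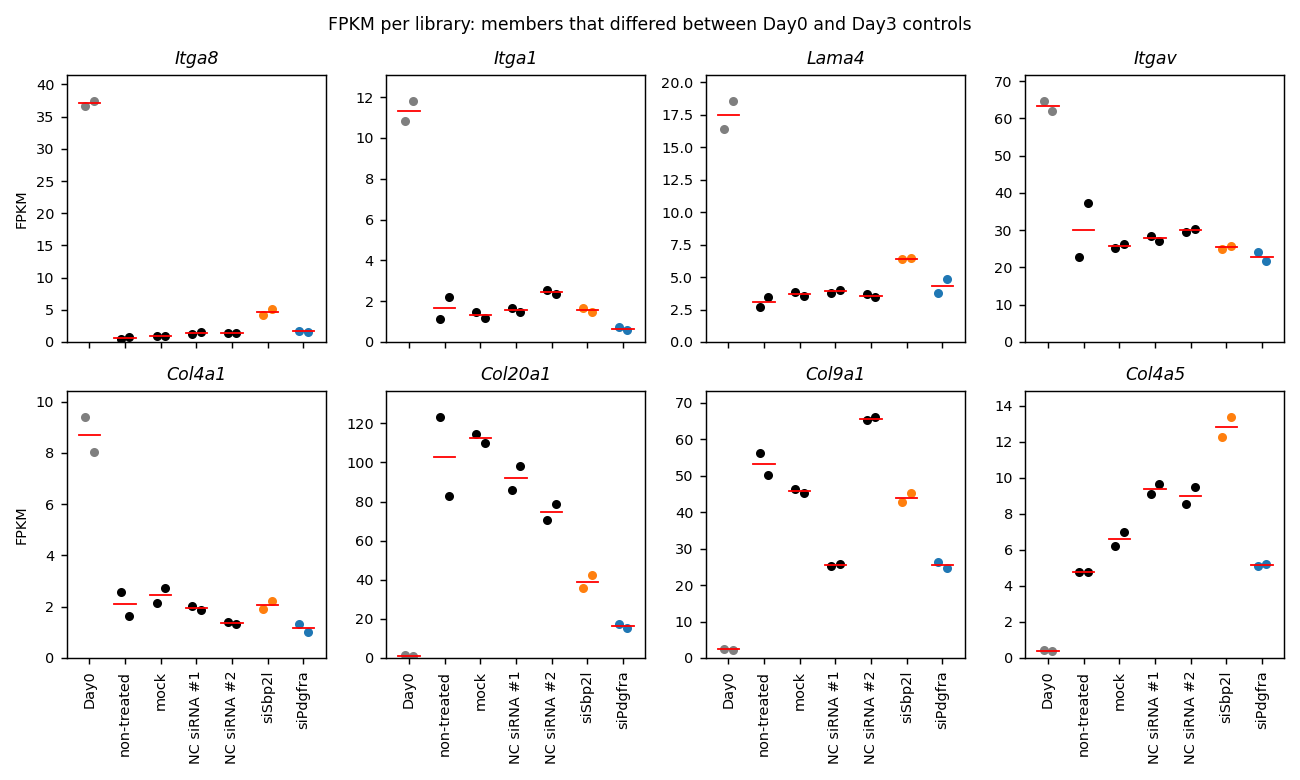
FPKM of 8 members in each library (points) with the mean of each group (red line), for Day0 (grey), the Day3 controls (black), siSbp2l (orange) and siPdgfra (blue). Itga8, Itga1, Lama4, Itgav and Col4a1 are highest at Day0, where Itga8 reaches 36.7 and 37.4 FPKM, and Col20a1, Col9a1 and Col4a5 are lowest there.

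Knockdown of Sbp2l was compared with the mean of the 4 Day3 control groups. It left 31 of 36 members uncalled, with 4 higher and 1 lower beside 7.19% of 11650 genes called (3.12% higher and 4.08% lower). The direction of calls over all genes depended on the scaling, with 363 higher and 475 lower as deposited and 214 and 616 after median-ratio scaling, under which 3 members were higher and 1 lower. The higher members were Col27a1, Itga8, Col28a1 and Col9a2, and the lower was Col20a1. Col27a1 stood at 7.68 and 7.09 FPKM in siSbp2l and at 0.978 to 2.70 in the 8 control libraries, a log2 difference of 1.51 ± 0.12 (SE, adjusted p = 4.43e-06). Itga8, which had fallen from Day0, stood at 4.27 and 5.10 FPKM against 0.508 to 1.52, higher by 1.47 ± 0.10 (SE, adjusted p = 1.62e-06), and its difference from Day0 was -2.75 ± 0.12 (SE, adjusted p = 4.08e-09). Col28a1, a collagen with von Willebrand factor A domains, was at 0.0673 and 0.0736 FPKM at Day0, 0.200 and 0.0664 in non-treated, 0.0227 and 0 in mock, 0.324 and 0.186 in NC siRNA #1, 0.102 and 0.0360 in NC siRNA #2, 1.42 and 1.56 in siSbp2l and 0.420 and 0.509 in siPdgfra. Only the siSbp2l libraries exceeded 1 FPKM, so the filter admitted it through the group in which it was called higher, and without it 3 members were higher. The difference was 1.16 ± 0.08 (SE, adjusted p = 1.89e-06). Col9a2 was higher by 1.08 ± 0.15 (SE, adjusted p = 0.000212), at 5.07 and 4.75 FPKM against 1.15 to 3.08. Col20a1 was lower at -1.25 ± 0.14 (SE, adjusted p = 4.81e-05), at 35.7 and 42.4 FPKM against 70.6 to 123. For none of these 5 genes did the siSbp2l and control libraries overlap.

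Against each of the 4 control groups separately, Itga8 and Col27a1 passed in all 4, both of them higher, beside 3.23% of genes (1.19% higher and 2.03% lower). Itga8 differed by 1.78 from non-treated, 1.58 from mock, 1.26 from NC siRNA #1 and 1.26 from NC siRNA #2. Col27a1 differed by 1.40, 1.41, 1.27 and 1.97 in the same order. Col28a1 missed the fold threshold against NC siRNA #1 alone, at 0.99, and Col20a1 against NC siRNA #2 alone, at -0.92. Col9a2 was called against 2 of the 4 groups. Of members not called against the mean, Itga2 was lower against 3 groups and Itgb8 against 1. Col11a1 was higher against 2 groups and Col4a5 against 1. Col11a1 was short of the threshold against the mean, at 0.91 ± 0.08 (SE, adjusted p = 1.19e-05), and its differences from single groups ran from 0.14 against NC siRNA #2 to 1.37 against NC siRNA #1. With the GC and length trends removed within each library, Col28a1 was at 0.97 and Col9a2 at 0.87 on the log2 scale and neither was called. After median-ratio scaling Col9a2 was at 0.94 and was not called either. In the added comparison with Day0, 14 members were higher and 7 lower in siSbp2l, where 22.8% of genes were called.

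In siPdgfra, whose target is the receptor for the mitogen PDGF-AA, 6 members were called. Set against the 4 control groups together, 2 were higher and 4 lower, beside 7.99% of genes called (3.97% higher and 4.03% lower). Col18a1 was higher by 2.10 ± 0.12 (SE, adjusted p = 8.69e-07), at 37.8 and 36.5 FPKM against 3.72 to 14.3 in the 8 control libraries. Itga4 was higher by 1.02 ± 0.09 (SE, adjusted p = 1e-05), at 2.33 and 2.15 FPKM against 0.213 to 1.75. That call was at the threshold, and without the non-treated group the difference was 0.94 and was not called. Col11a2 was lower at -2.54 ± 0.15 (SE, adjusted p = 1.06e-06), at 0.967 and 1.22 FPKM against 9.04 to 16.9. Col20a1 was lower at -2.46 ± 0.14 (SE, adjusted p = 6.5e-07), at 17.3 and 15.2 FPKM against 70.6 to 123. Both collagens were therefore well apart from every control library. Col16a1 was lower at -1.43 ± 0.20 (SE, adjusted p = 0.000212), at 32.1 and 38.6 FPKM against 69.8 to 138. Itga7 was lower at -1.26 ± 0.12 (SE, adjusted p = 1.58e-05), at 3.01 and 2.55 FPKM against 5.16 to 10.0. For each of the 6 genes the siPdgfra libraries lay outside the range of the controls. Whether the differences in either knockdown came from loss of the target or from the siRNA itself was not tested.

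Col18a1 was higher and Col11a2, Col16a1 and Col20a1 were lower against all 4 control groups, 1 and 3 members beside 3.61% of genes (1.77% higher and 1.84% lower). These are the collagens whose promoters are printed above. The Col18a1 difference was 2.74 from non-treated, 2.62 from mock, 1.38 from NC siRNA #1 and 1.66 from NC siRNA #2. Col11a2 ran from -2.79 to -2.30, Col16a1 from -1.48 to -1.34 and Col20a1 from -2.72 to -2.13. Itga4 and Itga7 were each called against 3 of the 4 groups. Lamc1, short of the threshold against the mean at -0.80 ± 0.06 (SE, adjusted p = 5.47e-06), was lower in siPdgfra than in each control library, at 14.4 and 14.8 FPKM against 16.2 to 33.1.

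Several members stood near their Day0 level in siPdgfra, which was compared with Day0 as an addition after the data were seen. In that comparison 8 members were higher and 6 lower, where 27.7% of genes were called. Col11a2 differed from Day0 by 0.15 ± 0.20 (SE, adjusted p = 0.501), with a 95% interval of -0.28 to 0.59. The interval was -0.34 to 0.78 around 0.22 for Col16a1, -0.01 to 0.72 around 0.36 for Col18a1 and -0.53 to 0.10 around -0.21 for Itga7. Differences within those intervals were not detectable with 2 libraries a group. Other members did not stay near Day0: Itga8 was lower in siPdgfra at -3.83 ± 0.12 (SE, adjusted p = 3.61e-10) and Col20a1 higher by 2.94 ± 0.17 (SE, adjusted p = 4.29e-08).

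**Figure D3:**
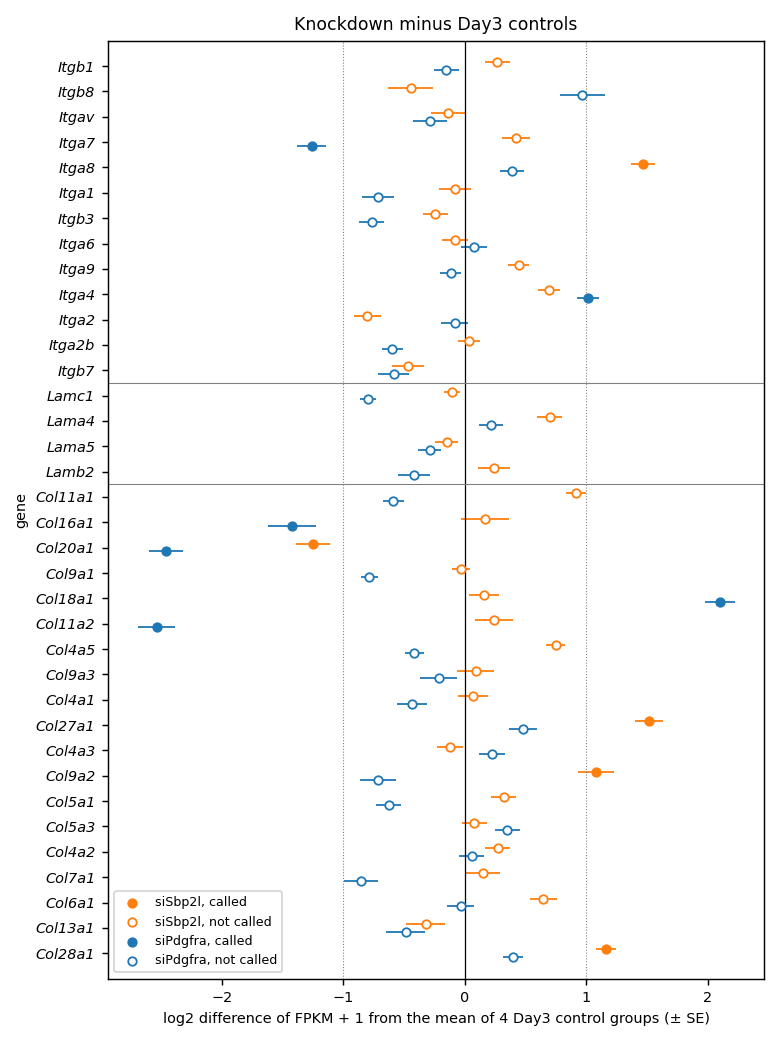
Log2 difference of FPKM + 1 (± SE) of each member in siSbp2l (orange) and siPdgfra (blue) from the mean of the 4 Day3 control groups, which both share, with filled points for calls and dotted lines at the fold threshold. Col18a1 at 2.10 lies farthest to the right and Col11a2 at -2.54 farthest to the left, both in siPdgfra.

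The knockdowns were also compared with each other directly. Of 36 members 10 were higher and 2 lower in siSbp2l than in siPdgfra, beside 13.7% of genes called (6.94% higher and 6.73% lower). After median-ratio scaling, and also with the GC and length trends removed, 7 were higher and 2 lower, and Itga8, Col27a1 and Col7a1 were not called. Over all genes the 808 higher and 784 lower calls became 659 and 893 after that scaling and 655 and 917 without the trends. Col11a2 differed by 2.78 ± 0.20 (SE, adjusted p = 2.75e-06), Col9a2 by 1.79 ± 0.19 (SE, adjusted p = 3.37e-05), Itga7 by 1.68 ± 0.15 (SE, adjusted p = 1.18e-05), Col16a1 by 1.60 ± 0.25 (SE, adjusted p = 0.000462) and Col11a1 by 1.50 ± 0.10 (SE, adjusted p = 2.28e-06). Col20a1, lower than the controls in both knockdowns, was higher in siSbp2l than in siPdgfra by 1.21 ± 0.17 (SE, adjusted p = 0.000265). Col4a5, Itga8, Col27a1 and Col7a1 were the other higher members, by 1.16, 1.08, 1.04 and 1.01. The lower members were Col18a1 at -1.94 ± 0.16 (SE, adjusted p = 6.22e-06) and Itgb8 at -1.41 ± 0.23 (SE, adjusted p = 0.000661). Itgb8 libraries were at 21.0 and 19.7 FPKM in siSbp2l and 54.2 and 57.4 in siPdgfra, and the control libraries spread from 16.5 to 43.8. By family 8 collagens and 2 integrins were higher and 1 of each lower. The median difference of the members was 0.6, beside 0.06 for all genes tested.

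**Figure D4:**
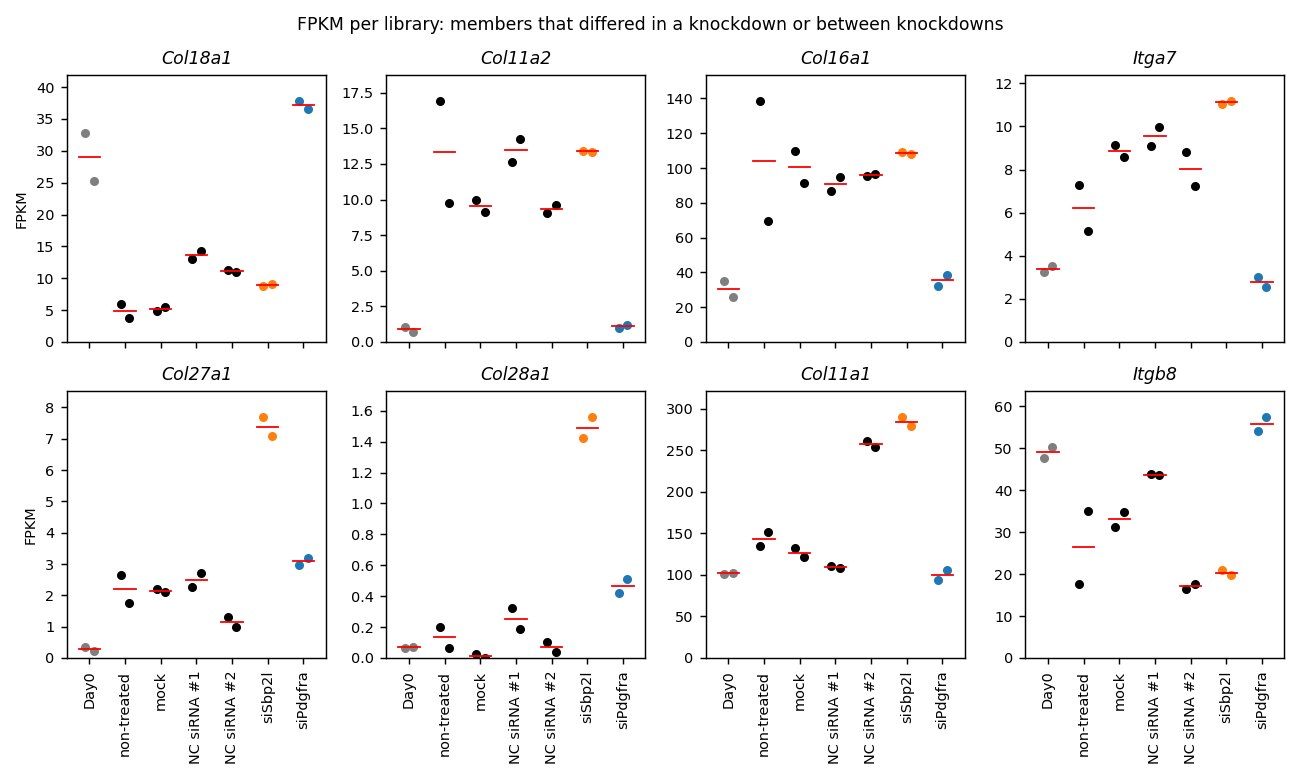
FPKM of 8 members in each library (points) with the mean of each group (red line), coloured as in the plot of Day0 and Day3. Col18a1 is high at Day0 and in siPdgfra, Col11a2, Col16a1 and Itga7 are low in both, Col27a1 and Col28a1 are highest in siSbp2l, and Col11a1 and Itgb8 differ between the non-targeting siRNAs.

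The non-targeting siRNAs did not give the same levels. Between NC siRNA #1 and NC siRNA #2, 2 members were higher and 3 lower, beside 3.99% of genes called (2.36% higher and 1.63% lower). Itgb8 was higher in NC siRNA #1 by 1.30 ± 0.23 (SE, adjusted p = 0.00313) and Itga2 by 1.30 ± 0.14 (SE, adjusted p = 0.000143). Col9a1 was lower at -1.34 ± 0.09 (SE, adjusted p = 7.54e-06), Col11a1 by -1.23 ± 0.10 (SE, adjusted p = 2.7e-05) and Col9a3 by -1.06 ± 0.19 (SE, adjusted p = 0.0032). For Col9a1 the NC siRNA #1 libraries, at 25.1 and 25.6 FPKM, lay at the level of siPdgfra, at 26.4 and 24.8, and for Col11a1 the NC siRNA #2 libraries, at 261 and 254, lay near siSbp2l, at 290 and 279. Col9a1 in siPdgfra thus differed by -1.32 from NC siRNA #2 and by 0.01 from NC siRNA #1, and Col11a1 in siSbp2l by 1.37 from NC siRNA #1 and by 0.14 from NC siRNA #2. With both NC siRNAs together against non-treated and mock, 2 members were called, both higher, beside 1.28% of genes (0.472% higher and 0.807% lower). They were Itgb3 at 1.16 ± 0.09 (SE, adjusted p = 2.77e-05) and Col18a1 at 1.16 ± 0.11 (SE, adjusted p = 7.23e-05). Itgb7 was at -0.98 ± 0.12 (SE, adjusted p = 0.000232), just under the fold threshold.

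Members that separate Day0 from Day3 can be followed in the knockdowns without shared libraries by setting each knockdown against the mean of both NC siRNAs. This addition was made after the data were seen. Of the 13 members higher than Day0 in both non-treated and mock, 9 lay above the NC siRNAs in siSbp2l and 4 below, with a median log2 difference of 0.1. Over the 1214 genes of any kind with the same history, 76.7% lay below, with a median of -0.47. Of the 13 members 2 were called higher and 1 lower, beside 1.81% and 23.4% of the 1214 genes. Itgb7 and Col13a1, which the filter admitted through non-treated and mock, are among the 9, at 0.02 and 0.08. In siPdgfra 11 of the 13 lay below and 2 above, with a median of -0.52, where 65.9% of the 1214 genes lay below with a median of -0.25. There 3 members were called lower and 0 higher, beside 15.9% and 3.46% of the 1214 genes. Itgb7 and Col13a1 are among the 11, at -0.09 and -0.08. Of the 8 members lower than Day0, 5 lay above the NC siRNAs in siSbp2l, beside 79.7% of 1380 genes, and 4 in siPdgfra, beside 76.3%. These are descriptions of small sets, with no test of a difference between members and other genes.

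A further 3 lists of the same system were counted. Of 28 cytoplasmic partners of integrins (talin, kindlin, the Ilk-Pinch-parvin complex and others), 24 were tested, and against Day0 7 were higher and 2 lower in non-treated and 8 higher and 1 lower in mock, beside the 26.6% and 26.2% of all genes given above. Against the mean of the controls, siSbp2l had 2 higher and 3 lower, beside 7.19% of all genes. The actin crosslinker Flna was higher by 2.00 ± 0.08 and the Pinch-binding Rsu1 by 1.26 ± 0.08 on the log2 scale (± SE), and the vinculin-binding Sorbs3 was lower at -1.68 ± 0.15, the parvin Parvb by -1.54 ± 0.10 and the focal adhesion protein Tns1 by -1.01 ± 0.09. In siPdgfra, where 7.99% of all genes were called, 4 were lower: Parvb at -1.78 ± 0.10, Tns1 at -1.46 ± 0.09, the parvin Parva at -1.05 ± 0.08 and the pseudokinase Ilk at -1.01 ± 0.10. Rsu1, Parva and Ilk, and Ntn4 in the next list, were named after their values were seen, because the counts were small.

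Of 28 other matrix ligands and receptors, 20 were tested against Day0, with 4 higher and 6 lower in non-treated and 4 higher and 5 lower in mock, and 17 in the Day3 fit, to which the same shares of all genes apply. There 1 was called in siSbp2l, higher, the netrin Ntn4 at 1.40 ± 0.10. In siPdgfra the thrombospondin Thbs2 was higher at 2.17 ± 0.08, the syndecan Sdc1 at 1.69 ± 0.13 and the fibrillin Fbn2 at 1.63 ± 0.08, and the heparan sulfate proteoglycan Agrn was lower at -1.88 ± 0.13. A list of 29 symbols covered enzymes and chaperones that fold, modify or crosslink collagen, with older and newer symbols of 1 gene both given. Of these symbols 25 were found in the table and 15 were tested. Against Day0 2 were higher and 1 lower in non-treated, below the 26.6% of all genes. In mock 5 were higher and 1 lower, beside 26.2%. The prolyl 3-hydroxylase Leprel1 was the only one called in siSbp2l, higher at 1.35 ± 0.07, and it was lower in siPdgfra at -1.16 ± 0.07 together with the procollagen processing enhancer Pcolce at -1.44 ± 0.12.

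Markers of the labelled cells and of other cells moved with the groups, and their part in the results above was not tested. The summed level of 6 OL markers was 392 to 435 FPKM at Day0 and at Day3 7000 to 7500 in non-treated, 6300 to 6480 in mock, 8520 to 8700 in NC siRNA #1, 4620 to 4760 in NC siRNA #2, 1600 to 1780 in siSbp2l and 4090 to 4740 in siPdgfra. That of 6 OPC markers was 2040 to 2340 at Day0 and 750 to 1140 at Day3. Sox10 did not share that fall, at 168 and 133 FPKM at Day0 and at 167 to 318 at Day3. None of 8 fibroblast and mural cell markers reached 1 FPKM in 2 libraries, and their sum was 0.422 to 1.23 FPKM. Which cells made the collagen mRNAs was not tested. Of 6 endothelial markers, Kdr alone passed 1 FPKM, Cldn5 and Cdh5 were at 0, and sums ran from 0.637 to 1.93. Of 7 microglial markers, P2ry12 alone passed, with sums from 0.525 at Day0 to 9.46 in NC siRNA #1, 6.60 to 7.61 in siPdgfra and 3.29 to 3.91 in siSbp2l. Astrocyte markers, 4 of 6 above 1 FPKM, summed to 57.1 to 60.1 at Day0, to 90 to 158 in the Day3 controls, to 102 to 110 in siSbp2l and to 41.3 to 42.1 in siPdgfra. Of those 4, Aldoc and Slc1a3 were lower in siPdgfra than at Day0. Gfap was higher there, at 18 and 18.1 FPKM against 0.677 and 0.755, and so was Aldh1l1, at 2.42 and 2.6 against 0.246 and 0.202. Neuronal markers, 5 of 6 above 1 FPKM, summed to 37.3 to 40.7 at Day0, to 49.5 to 278 in the Day3 controls, to 202 in siSbp2l and to 238 to 242 in siPdgfra. Most of that rise was in 1 gene, the neuronal tubulin Tubb3, at 22.8 to 24.6 FPKM at Day0 and 46.3 to 273 at Day3. Nefl was at 9.88 and 11.4 FPKM at Day0 and at 1.14 to 2.24 at Day3, and Snap25 at 1.78 and 2.30 at Day0 and at 0.174 to 0.753 at Day3. Syt1 was at 2.41 and 2.71 FPKM at Day0, at 0.354 to 1.70 in the Day3 controls and at 4.49 to 5.16 in the knockdowns.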

How the data were processed

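mRNA was sequenced from 14 libraries of cultured mouse OPC/OLs, 2 in each of 7 groups taken from the sample labels. The authors processed the reads in OmicSoft ArrayStudio on the mm10 refGene model and deposited FPKM values for 23427 genes (aligner and counting settings not given in the sources used here). The 16 columns of the authors' own DESeq2 comparisons, fold changes and p-values, were not used. The column of siSbp2l replicate 1 is misspelled, and the non-treated columns are named by day only. Depth was estimated from the steps of low FPKM values (88.8 to 92.5% whole within 0.1 of a fragment). Floors of 3 fragments cover counting error only.

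FPKM was used as deposited, as log2(FPKM + 1), which understates changes of low genes, for genes at 1 FPKM or more in 2 libraries. limma 3.58.1 in R 4.3.3, with trend and robust moderation and 1 mean per group, was fitted to 14 libraries for comparisons with Day0 (11874 genes, 7 residual df) and to the 12 Day3 libraries otherwise (11650 genes, 6 residual df). P-values are two-sided and Benjamini-Hochberg adjusted over all genes tested. A test for counts was not run on FPKM. GC content came from GENCODE vM21. Members called in a comparison of the design or with a group mean of at least 10 FPKM are given by library, the others by range, except Col6a1 and Col4a3, given by library because an added comparison called them. Members and lists were chosen with earlier results of these data known. Alternatives were other pseudocounts, filters, scalings and fits, GC and length correction, and leaving out each library.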

Additional observations from a re-analysis of the deposited data

Results flagged for a closer look

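For 12 members the difference between siSbp2l and siPdgfra, tested directly in limma, passed a fold of 2 and an adjusted p under 0.05, so that their levels differed between these groups. On the log2(FPKM + 1) scale, siSbp2l minus siPdgfra was 2.78 for Col11a2, 1.79 for Col9a2, 1.68 for Itga7, 1.60 for Col16a1, 1.50 for Col11a1, 1.21 for Col20a1, 1.16 for Col4a5, 1.08 for Itga8, 1.04 for Col27a1 and 1.01 for Col7a1, and -1.41 for Itgb8 and -1.94 for Col18a1. After median-ratio scaling, and with the GC and length trends removed, Itga8, Col27a1 and Col7a1 were no longer called. For 4 of the 12 the knockdowns lay on opposite sides of the mean of the 4 Day3 control groups, each with an adjusted p under 0.05 (limma). Col11a1 was at 0.91 ± 0.08 (SE, adjusted p = 1.19e-05) in siSbp2l and -0.59 ± 0.08 (SE, adjusted p = 0.000216) in siPdgfra, and Col4a5 at 0.75 ± 0.08 (SE, adjusted p = 3.48e-05) and -0.42 ± 0.08 (SE, adjusted p = 0.00153). Col9a2 was at 1.08 ± 0.15 (SE, adjusted p = 0.000212) and -0.72 ± 0.15 (SE, adjusted p = 0.0025), and Itga7 at 0.42 ± 0.12 (SE, adjusted p = 0.0129) and -1.26 ± 0.12 (SE, adjusted p = 1.58e-05). The siPdgfra libraries of Col4a5, at 5.10 and 5.21 FPKM, lay inside the control range of 4.75 to 9.66. Of these 8 effects, those of Col9a2 in siSbp2l and of Itga7 in siPdgfra also passed the fold threshold. Col11a1 differed between the NC siRNAs too, at -1.23 ± 0.10 (SE, adjusted p = 2.7e-05) in NC siRNA #1 against NC siRNA #2. So did Itgb8, another of the 12, at 1.30 ± 0.23 (SE, adjusted p = 0.00313, limma). Its siSbp2l libraries, at 21.0 and 19.7 FPKM, lay inside the control range of 16.5 to 43.8, and its siPdgfra libraries, at 54.2 and 57.4, above it. Groups of 2 libraries were too small for a check of single outlying samples.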

How the results depend on the processing

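None of 73 called differences changed sign under any alternative. Of the 179 uncalled differences, 34 took the other sign in at least 1 alternative, and none of those was larger than 0.24 on the log2 scale. Of 73 calls, 33 held in every alternative, and 1630 of 1705 recomputed calls held. Without a fold threshold the members called, with the share of all genes under the same rule, were 32 (67%) for non-treated minus Day0, 17 (53.4%) for siSbp2l and 26 (55.4%) for siPdgfra against the mean of the controls, 7 (21.8%) and 9 (22.4%) against each control, 27 (52%) between knockdowns, 13 (21%) between NC siRNAs and 16 (28.1%) for the NC siRNAs against non-treated and mock. With a pseudocount of 0.1 they were 9 for siSbp2l and 15 for siPdgfra against the mean, 4 for siSbp2l against each control, 11 between NC siRNAs and 6 for these against non-treated and mock. With a pseudocount of 5, which shrinks low genes by construction, they were 8 in non-treated and 10 in mock against Day0, 1 for siSbp2l against the mean and 0 against each control, 7 between knockdowns, 3 between NC siRNAs and 0 for these against non-treated and mock. With a filter of 5 FPKM, under which fewer genes are tested, they were 13 in non-treated and 14 in mock against Day0, and 2 and 1 for siSbp2l against the mean and each control. For the pseudocounts and this filter the share of all genes called is not given. The same holds for the left-out libraries and the replicate block below, so these counts describe the members only. With the GC and length trends removed, added after the data were seen, 3 were called for siSbp2l against the mean.

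Leaving out 1 library at a time gave 15 to 22 members for non-treated and 20 to 23 for mock against Day0, 4 to 5 for siSbp2l and 5 to 7 for siPdgfra against the mean, 2 to 3 and 3 to 5 against each control, 10 to 12 between knockdowns, 4 to 6 between NC siRNAs and 2 to 3 for these against non-treated and mock. The lone library left in a group is then assumed to vary like the other groups. The median of all genes shifted by 0.15 in siSbp2l against the mean and by -0.12 in non-treated against Day0. Over all genes siSbp2l had 363 higher and 475 lower calls as deposited, 214 and 616 after median-ratio scaling, 282 and 532 after upper-quartile scaling and 202 and 639 without GC and length trends. For the members, median-ratio scaling gave 1 higher and 4 lower in siPdgfra and 4 and 3 between NC siRNAs. The labels do not say whether a replicate number marks a shared culture. Of 21 correlations of same-numbered deviations, 3 exceeded 0.1 (range -0.38 to 0.47). They cannot decide on a pairing, because the replicate differences of some groups followed GC content. With the replicate number as a block the members called were 21, 22, 5, 2, 6, 4, 12, 5 and 2 in the order non-treated and mock against Day0, siSbp2l against the mean and each control, siPdgfra likewise, between knockdowns, between NC siRNAs, and NC siRNAs against non-treated and mock. These equal the counts without it. Depth limits the low members most, and no recount of reads was possible from FPKM.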
